A study of Mus musculus with 12 samples.

Results

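The genes described here are 33 transcripts that mark macrophages, the phagocytes that live in the heart and take up dead cells and debris, measured in RNA-seq libraries of cultured mouse cardiac fibroblasts. They were chosen by symbol from the 35275 genes in the count table, because they are known to mark macrophages. This choice, like that of the other gene lists, was made with earlier results of these data known. Counts of called genes set beside the share of all genes are therefore descriptive. Fibroblasts had been grown to passage 2 from hearts of 12-week-old C57BL/6 mice carrying a floxed Smad7 allele, which control and knockout cells share. Cells were infected for 48 hours at 100 MOI (infecting virus particles per cell) with an adenovirus that either expressed Cre recombinase, which deletes floxed Smad7 (Smad7-KO), or served as control, labelled as a GFP virus. Each genotype was left unstimulated or received TGF-β1 at 10 ng/ml, for 2 hours by the treatment tag and for 4 hours by the protocol text, giving 4 conditions with 3 libraries each. The Cre virus and the loss of Smad7 cannot be told apart in this design, and no label states that replicate libraries came from separate animals or cultures, so that p-values measure the spread between these libraries.

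Macrophages depend on the receptor CSF1R and on the transcription factor PU.1, encoded by Spi1. They recognise their targets through complement, through Fc receptors that bind antibody, and through scavenger and lectin receptors that bind altered lipoproteins or microbial sugars, and they degrade what they engulf in lysosomes. TGF-β1 acts on fibroblasts and on macrophages through receptors that activate SMAD proteins, and SMAD7 is an inhibitor of that pathway whose own gene is induced by it.

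The libraries held 19056916 to 25371321 counts. Smad7 itself was at 71.4 to 77.2 CPM (counts relative to library size, scaled by the TMM method) in unstimulated control and 28.4 to 31.1 CPM in unstimulated Smad7-KO libraries, and at 142 to 150.3 and 70.0 to 80.8 CPM with TGF-β1. Library 2 of unstimulated control stood apart, because short genes (the lowest tertile of gene length) exceeded long genes (the highest tertile) by 1.14 log2 in its fitted length trend, against −0.38 to 0.42 in the others. This trend also differed on average between genotypes, although their ranges overlapped. Its mean without and with TGF-β1 was 0.43 and 0.14 log2 in control, and −0.27 and −0.25 log2 in Smad7-KO libraries. All 10 fibroblast markers examined passed the count filter, with a summed level of 7425 to 11500 CPM. Single markers differed between genotypes in both directions. Without stimulation, means in control and Smad7-KO were 109 and 37.2 CPM for Thy1, 138 and 56.2 CPM for Tcf21, and 561 and 682 CPM for Dcn. Of the other cell type lists, 10 endothelial genes summed to 278 to 332 CPM over the 6 control libraries and 46.3 to 58.6 CPM over the 6 Smad7-KO libraries. Vwf, on that list, went the other way. It averaged 14.8 CPM in control against 30.4 CPM in Smad7-KO without stimulation, and 17.0 against 25.8 CPM with TGF-β1. The 6 neutrophil genes summed to 17.5 to 35.5 CPM over the control libraries and 51.9 to 61.3 CPM over the Smad7-KO libraries. Of these, S100a9, Ly6g and Retnlg were at 3 counts or fewer in every library, and only 2 of the 6 passed the count filter. S100a8, which passed, went the other way from the sum. It averaged 0.299 CPM in control against 0.0596 CPM in Smad7-KO without stimulation, and 0.926 against 0.328 CPM with TGF-β1. The 10 lymphocyte genes summed to at most 1.13 CPM.

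Macrophage transcripts were abundant in the cultures. The 33 genes together took 2.32 to 3.12% of all counts in the control libraries and 3.23 to 3.54% in the Smad7-KO libraries, so that the lowest Smad7-KO library lay above the highest control library. Lyz2, which encodes lysozyme, alone took 0.884 to 1.51% of counts. Its length-normalised level (FPKM, fragments per kilobase of gene and library size, as deposited) was the highest of all genes in 10 of the 12 libraries and ranked 2 and 3 in the remaining control libraries. Without Lyz2, the other genes took 1.42 to 1.68% in control and 1.96 to 2.15% in Smad7-KO libraries. Among the 100 genes of highest FPKM stood 6 or 7 of the 33 in each control library and 11 in each Smad7-KO library. Which cells carried these transcripts was not measured, and in a bulk sample more cells of a type and more of a transcript per cell cannot be told apart.

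On the FPKM scale, averaged over the 12 libraries, Lyz2 stood at 9687. The 3 chains of complement component C1q followed, with C1qa at 1728, C1qb at 1706 and C1qc at 1425 FPKM, an order that was not tested. Next came the signalling adaptors Tyrobp at 837 FPKM and Fcer1g at 733 FPKM, then Ctss, a lysosomal protease, at 685 FPKM and Cd68, a lysosomal membrane protein, at 603 FPKM. The growth factor receptor Csf1r averaged 275 FPKM, the mannose receptor Mrc1 193 FPKM and the fractalkine receptor Cx3cr1 47.6 FPKM. Genes known from resident macrophages of the adult heart stood at different places in this order. Folr2 averaged 27.0 FPKM and Mertk 46.9 FPKM, beside Mrc1 above, while some others were at the bottom. The hyaluronan receptor Lyve1 averaged 0.113 FPKM from 2 to 13 counts per library, and Timd4, a receptor for phosphatidylserine on dead cells, 0.00911 FPKM from 0 to 3 counts. The haemoglobin scavenger receptor Cd163 averaged 1.10 FPKM, and Ccr2, the receptor of recruited monocyte-derived cells, 0.0779 FPKM from 1 to 21 counts per library.

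Of the 33 genes, 31 passed the filter on low counts and were tested, Lyve1 and Timd4 were not. The count minimum was met in all 4 conditions by 29 genes, while Vsig4 met it in 1 condition and Ccr2 in the 2 Smad7-KO conditions only. A pass of that kind depends on the condition in which the gene is high, so that the Ccr2 comparison between genotypes is not independent of the filter.

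To separate a shift common to white blood cell genes from changes of single genes, a panel of 32 other leukocyte genes was used as an internal scale. The panel holds Mpeg1, Itgam and other genes that the 33 do not include. Its level, the median ratio over its genes, varied from −0.12 to 0.10 log2 over the 6 control libraries and from 0.43 to 0.61 log2 over the 6 Smad7-KO libraries, relative to the mean of unstimulated control. The groups did not overlap. The difference between genotypes was 0.57 log2 without stimulation and 0.50 log2 with TGF-β1. With TGF-β1 the panel moved by −0.05 log2 in control and −0.12 log2 in Smad7-KO cells.

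**Figure D1:**
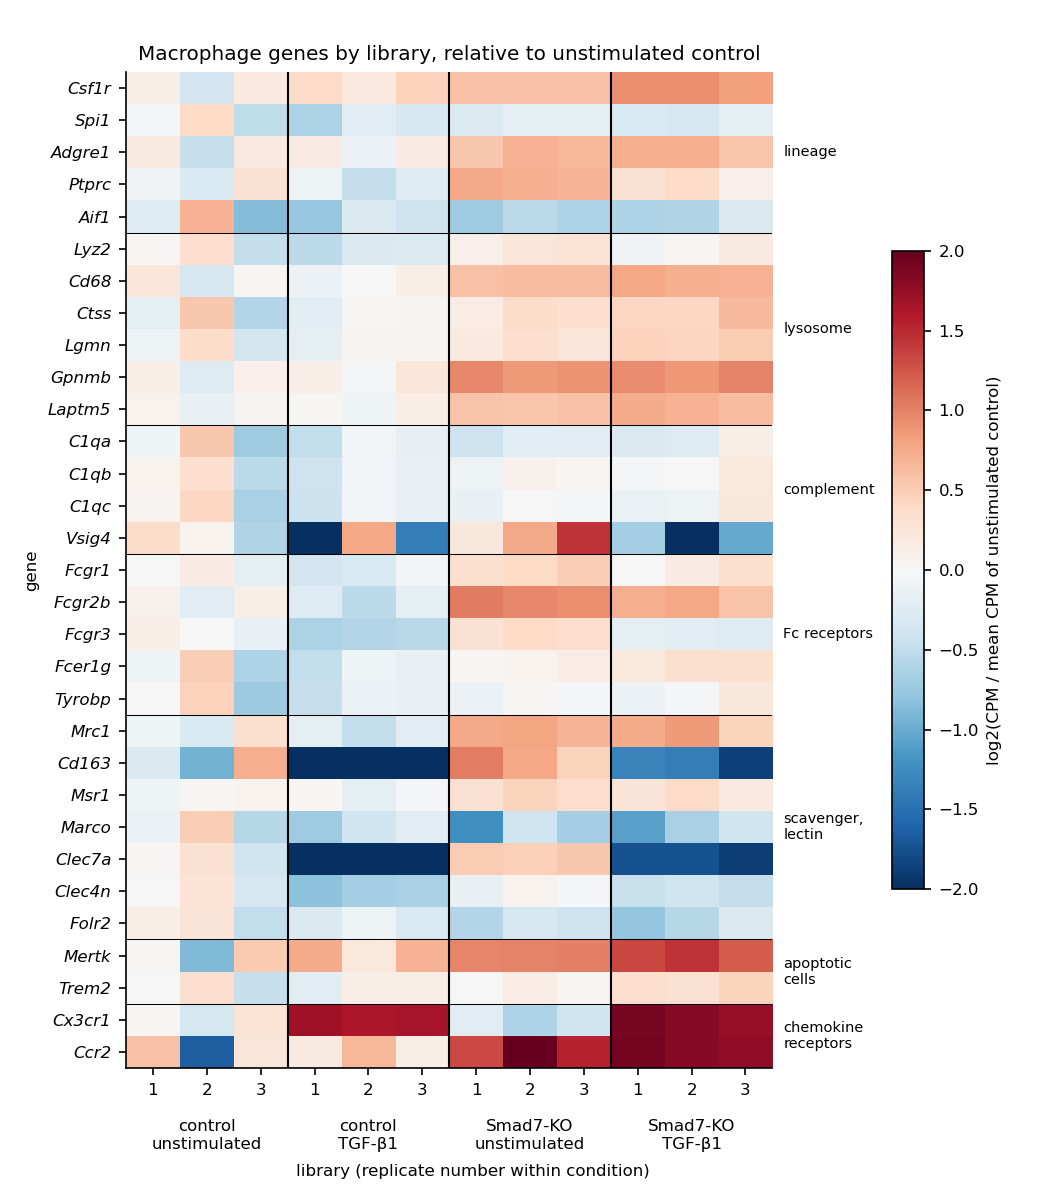
Heat map of the 31 tested macrophage genes (vertical axis, by role) in the 12 libraries (horizontal axis, by condition and replicate), with colour for log2 of CPM over the mean CPM of unstimulated control and limited to 2 in both directions. Genes such as Gpnmb, Fcgr2b and Mrc1 are higher in the 6 Smad7-KO libraries, while Cx3cr1, Clec7a and Cd163 separate the libraries by TGF-β1, Cx3cr1 upward and the other genes downward.

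Loss of Smad7 went with higher levels of many macrophage genes and with lower levels of none at the threshold. In unstimulated cells 14 of the 31 tested genes were called higher and 0 lower by edgeR's quasi-likelihood test at a Benjamini-Hochberg adjusted p of 0.05, against 12.1% of all 15150 tested genes called higher and 13.7% called lower. Another 3 of the 31, Marco, Folr2 and Cx3cr1, had an unadjusted p under 0.05, and all 3 differences were negative. The median log2 difference of the 31 was 0.36, beside −0.01 over all tested genes. The 6 libraries separated without overlap in 14 of the 31 genes, or 45.2%, which is near the 41.3% of all genes. With TGF-β1 present, 10 of the 31 were higher and 0 lower, against 5.72% and 7.23% of all genes, and the median was 0.42. There the groups did not overlap in 23 of the 31 genes, or 74.2%, against 44.9% of all genes. The same 10 genes were called in both comparisons. In the panel, 22 of 32 genes were higher without stimulation and 20 with TGF-β1, and 0 were lower.

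The number of calls depended on the libraries in the fit, while no called gene changed direction. With 1 library left out at a time, 6 to 18 genes were called without stimulation, the fewest without unstimulated Smad7-KO library 2 or 3. With TGF-β1 the range was 5 to 20, from 5 without control library 2, Smad7-KO library 1 or Smad7-KO library 2 of that condition to 20 without unstimulated control library 2. A fit of only the 6 libraries compared called 2 genes without stimulation, Gpnmb and Fcgr2b, and 20 with TGF-β1. The shares of all genes called in these fits, and in later ones with libraries left out, are not given here. Such counts therefore describe how stable the calls were and are not a result about the macrophage genes. Ptprc, Cd68, Gpnmb, Laptm5, Fcgr2b and Mrc1 without stimulation, and the last 5 of these with TGF-β1, were called whichever library was left out, and each of the other calls was lost in at least 1 of these fits.

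**Figure D2:**
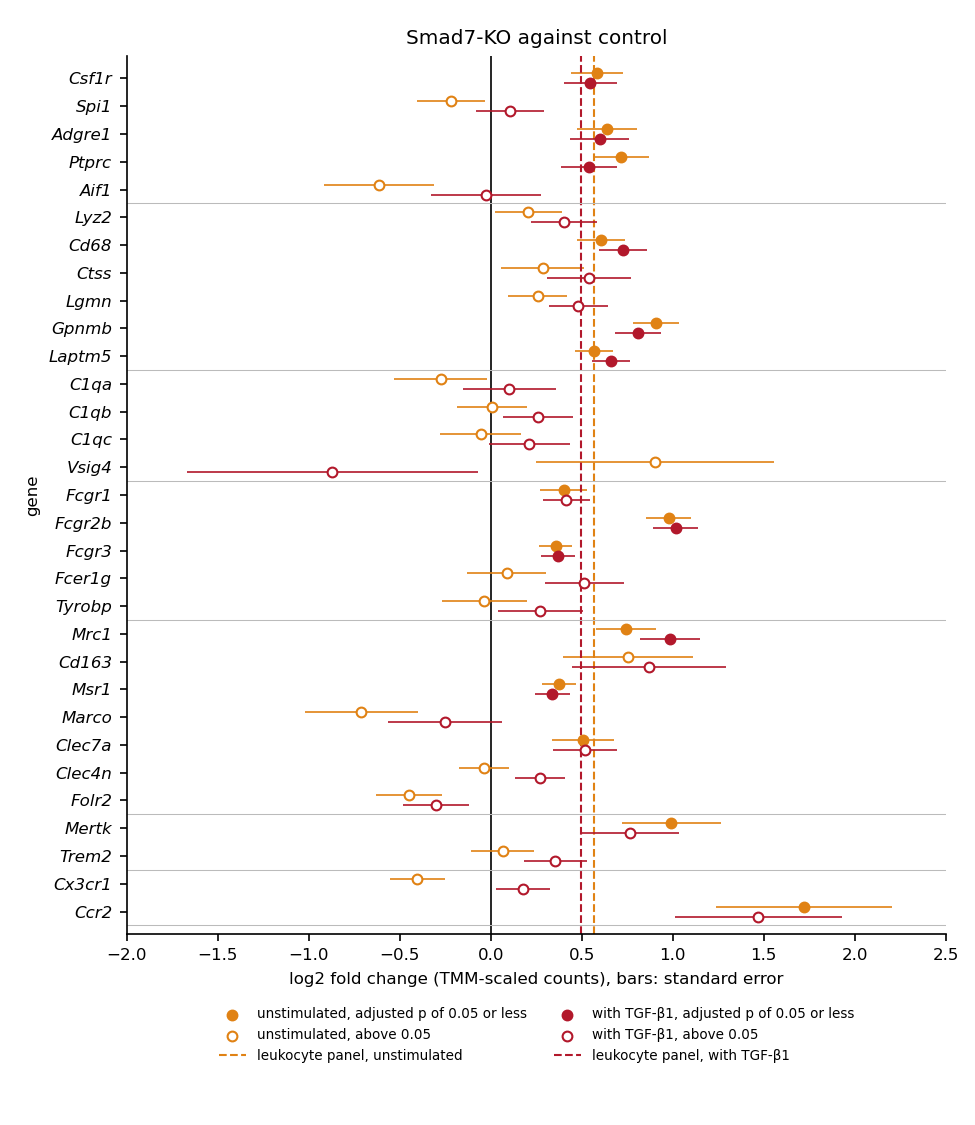
Log2 difference between Smad7-KO and control for the 31 tested macrophage genes (points, with bars for 1 standard error), without stimulation and with TGF-β1, filled where the adjusted p passed 0.05. The dashed lines mark the shift of the leukocyte panel at 0.57 and 0.50, and Fcgr2b and Gpnmb lie beyond it while the C1q chains, Spi1 and Folr2 lie to its left.

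Among the 5 lineage genes, Csf1r, Adgre1 and Ptprc were higher in both comparisons, and Spi1 and Aif1 in neither. Csf1r encodes the receptor for the survival factor CSF1. It stood at 995, 706 and 1054 CPM in unstimulated control and at 1372, 1382 and 1376 CPM in unstimulated Smad7-KO libraries, and with TGF-β1 at 1195, 1048 and 1268 CPM in control and 1754, 1751 and 1630 CPM in Smad7-KO. In both pairs every Smad7-KO library was above every control library, and the log2 differences were 0.58 ± 0.14 (SE, adjusted p = 0.0162) and 0.55 ± 0.14 (adjusted p = 0.0276). Adgre1, which encodes the surface marker F4/80, was at 827, 532 and 833 CPM in unstimulated control and at 1066, 1187 and 1164 CPM in unstimulated Smad7-KO libraries. With TGF-β1 it was at 815, 670.5 and 818 CPM in control and 1209, 1201 and 1078 CPM in Smad7-KO. It did not overlap between genotypes either, and rose by 0.64 ± 0.16 log2 (adjusted p = 0.0189) and 0.60 ± 0.16 log2 (adjusted p = 0.033). Ptprc, the leukocyte phosphatase CD45, was at 205, 174 and 268 CPM in unstimulated control against 364, 355 and 346 CPM in Smad7-KO, a difference of 0.72 log2 (adjusted p = 0.00887). With TGF-β1 it was at 201, 155 and 181 CPM against 265, 282 and 232 CPM, a difference of 0.54 log2 (adjusted p = 0.0413).

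Spi1, the gene of PU.1, gave a different picture. It was at 226, 306 and 164 CPM in unstimulated control and at 192, 203 and 203 CPM in Smad7-KO libraries, and with TGF-β1 at 149, 198 and 186 CPM and at 189, 181 and 202 CPM. The groups overlapped in both pairs, and the log2 differences were −0.22 ± 0.19 and 0.10 ± 0.19, with 95% intervals of −0.59 to 0.15 and −0.26 to 0.47. Aif1, which encodes the actin-bundling protein IBA1, ranged from 57.5 to 170.4 CPM in unstimulated control, with library 2 the highest, and from 64.0 to 73.3 CPM in unstimulated Smad7-KO. Its log2 difference was −0.61 ± 0.30 (adjusted p = 0.139).

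Of the 6 genes of lysosomes and degradation, Cd68, Gpnmb and Laptm5 had higher levels after Smad7 loss in both comparisons. Gpnmb, a membrane glycoprotein that accumulates in phagocytes with lysosomal load, showed the largest change of these. It was at 1419, 1077 and 1384 CPM in unstimulated control and 2518, 2337 and 2416 CPM in unstimulated Smad7-KO, and with TGF-β1 at 1423, 1272 and 1533 CPM and 2478, 2350 and 2567 CPM. The genotypes were far apart relative to their spread, with a 1.87-fold difference (0.91 ± 0.13 log2, adjusted p = 0.000883) and a 1.75-fold difference (0.81 ± 0.13 log2, adjusted p = 0.00211). Cd68 was at 674, 455 and 587 CPM in unstimulated control and 862, 874 and 876 CPM in Smad7-KO (0.60 ± 0.13 log2, adjusted p = 0.00943). With TGF-β1, Cd68 was at 530.2, 571 and 621 CPM in control and at 977, 939 and 931 CPM in Smad7-KO (0.72 ± 0.13 log2, adjusted p = 0.00498). Laptm5, a lysosomal membrane protein of blood cells, was at 1063, 914 and 1049 CPM in unstimulated control and 1492, 1482 and 1512 CPM in Smad7-KO, and with TGF-β1 at 1028, 953 and 1105 CPM and 1694, 1639 and 1547 CPM. Its differences were 0.57 ± 0.10 log2 (adjusted p = 0.00369) and 0.66 ± 0.10 log2 (adjusted p = 0.00206).

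The most abundant member did not pass. Lyz2 was at 12550, 15720 and 8952 CPM in unstimulated control and 13270, 14710 and 14980 CPM in Smad7-KO, so that the groups overlapped (0.21 ± 0.18 log2, adjusted p = 0.395). With TGF-β1 it was at 8677, 10130 and 10260 CPM and at 11830, 12610 and 13990 CPM, where the groups did not overlap and the difference was 0.40 ± 0.18 log2 (adjusted p = 0.171). Lyz2 shared 1.97% of its windows of 100 bases with its paralogue Lyz1. The protease Ctss was at 711, 1183 and 542 CPM in unstimulated control against 902, 1042 and 1025 CPM in Smad7-KO (0.28 log2), and at 691, 825 and 846 CPM against 1080, 1085 and 1269 CPM with TGF-β1 (0.54 log2, adjusted p = 0.145). For Lgmn, a lysosomal asparaginyl protease, the differences were 0.26 and 0.48 log2.

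None of the 4 complement genes was called in either comparison of genotypes. C1q is the recognition molecule that starts the classical complement cascade and is made by macrophages. C1qa was at 1897, 2910 and 1231 CPM in unstimulated control and at 1511, 1745 and 1730 CPM in Smad7-KO, and with TGF-β1 at 1426, 1931 and 1787 CPM and at 1649, 1692 and 2185 CPM. Library 2 was the highest and library 3 the lowest of unstimulated control, and the Smad7-KO libraries lay between them. C1qb was at 1991, 2399 and 1305 CPM in unstimulated control and at 1763, 2006 and 1960 CPM in Smad7-KO, and with TGF-β1 at 1431, 1825 and 1719 CPM and at 1856, 1901 and 2202 CPM. C1qc was at 1860, 2389 and 1142 CPM and at 1617, 1807 and 1760 CPM without stimulation, and at 1327, 1733 and 1619 CPM and at 1646, 1672 and 2097 CPM with TGF-β1. The same order of the unstimulated control libraries recurred in all 3 chains. Their log2 differences between genotypes were −0.28, 0.01 and −0.06 without stimulation and 0.10, 0.26 and 0.21 with TGF-β1, and for C1qa the 95% interval without stimulation was −0.77 to 0.22. Vsig4, a receptor for complement C3 fragments, had 1 to 24 counts per library and was called in no comparison.

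Of the 5 genes of Fc receptors and their adaptors, Fcgr1, Fcgr2b and Fcgr3 were called without stimulation and Fcgr2b and Fcgr3 with TGF-β1. Fcgr2b, the inhibitory receptor for IgG, had the smallest adjusted p of the 31 genes in both comparisons of genotypes. It was at 302, 245 and 309 CPM in unstimulated control and 587, 558 and 543 CPM in Smad7-KO, a 1.97-fold difference (0.98 ± 0.12 log2, adjusted p = 0.000508). With TGF-β1 it was at 239, 198 and 249 CPM in control and 474, 489.7 and 423 CPM in Smad7-KO, a 2.02-fold difference (1.02 ± 0.12 log2, adjusted p = 0.000559). The activating receptor Fcgr3 was at 412, 375 and 340.4 CPM in unstimulated control and 466, 495 and 481 CPM in Smad7-KO, and it rose by 0.36 ± 0.09 log2 (adjusted p = 0.0207). The same gene was at 241, 250.1 and 256 CPM in control and 327, 322 and 316 CPM in Smad7-KO with TGF-β1, and rose by 0.37 ± 0.09 log2 (adjusted p = 0.0242). Fcgr3 shared 2.54% of its windows of 100 bases with Fcgr2b. Fcgr1, the high-affinity IgG receptor, was at 39.1 to 50.3 CPM in unstimulated control against 55.6 to 62.7 CPM in Smad7-KO (0.40 log2, adjusted p = 0.0426), and missed the threshold with TGF-β1 (0.42 log2, adjusted p = 0.0559).

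The adaptors through which such receptors signal were not called as counted, and whether they differed less than the receptor chains was not tested. Tyrobp, which encodes DAP12, was at 498, 682 and 299 CPM in unstimulated control and 456, 501 and 486 CPM in Smad7-KO, and with TGF-β1 at 359, 454 and 443 CPM and 454, 486 and 577 CPM. Fcer1g, the common Fc receptor gamma chain, was at 453, 674 and 315 CPM in unstimulated control and 494, 507 and 532 CPM in Smad7-KO, and with TGF-β1 at 342, 454 and 433 CPM and 555, 601 and 598 CPM. Both had a wide range in unstimulated control, with library 2 highest. The differences were −0.04 and 0.27 log2 for Tyrobp and 0.09 and 0.51 log2 for Fcer1g.

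Of the 8 scavenger receptors and lectins 7 were tested. Smad7 loss went with higher levels of 3 of them without stimulation and of 2 with TGF-β1. Mrc1, the mannose receptor, was at 762, 659.9 and 1012 CPM in unstimulated control and 1376, 1398 and 1296 CPM in Smad7-KO (0.74 ± 0.16 log2, adjusted p = 0.0103). With TGF-β1, Mrc1 was at 711, 575 and 698 CPM against 1356, 1462 and 1106 CPM, a 1.98-fold difference (0.98 ± 0.17 log2, adjusted p = 0.00327). The groups were apart in both pairs. Msr1, the class A scavenger receptor for modified lipoproteins, was at 131, 142 and 146 CPM in unstimulated control and 173, 191 and 178 CPM in Smad7-KO (0.37 log2, adjusted p = 0.0184). It was at 142, 124 and 136 CPM against 167, 182 and 160.5 CPM with TGF-β1 (0.34 log2, adjusted p = 0.0371). Clec7a, the beta-glucan receptor dectin-1, was higher without stimulation only just past the threshold (0.51 ± 0.17 log2, adjusted p = 0.0489) and differed by 0.52 ± 0.18 log2 with TGF-β1 (adjusted p = 0.0768). Cd163 differed by 0.75 ± 0.36 and 0.87 ± 0.42 log2 and did not pass. Clec4n, the mannan receptor dectin-2, differed by −0.04 and 0.27 log2, the collagenous scavenger receptor Marco by −0.71 and −0.25 log2 from 27 to 77 counts per library, and the folate receptor Folr2 by −0.45 and −0.30 log2, and none of the 3 passed.

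Among receptors for dying cells, Mertk, a receptor tyrosine kinase that recognises them through bridging ligands, was at 117, 62.6 and 166 CPM in unstimulated control and 226, 230 and 232 CPM in Smad7-KO. It was called there, with a 1.99-fold difference (0.99 ± 0.27 log2, adjusted p = 0.0245). With TGF-β1 it was at 194, 133 and 186 CPM against 291, 313 and 267 CPM, without overlap but past no threshold (0.77 ± 0.27 log2, adjusted p = 0.0843). Trem2, a lipid receptor that signals through DAP12, was at 549.6, 687 and 396 CPM and at 542, 604 and 562 CPM without stimulation, and at 466, 594 and 592 CPM and at 698, 674 and 742 CPM with TGF-β1. Its log2 differences of 0.07 ± 0.17 and 0.35 ± 0.17 did not pass. Ccr2 was called higher without stimulation (1.72 ± 0.48 log2, adjusted p = 0.0269) from a handful of counts, at 0.269, 0.0571 and 0.211 CPM in control and 0.446, 0.901 and 0.521 CPM in Smad7-KO. That call is subject to the filter described above, and 13 of the other genes were called without it.

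Set against the leukocyte panel, few macrophage genes were higher still in Smad7-KO cells. Counted on this scale, with the panel's own level taken as known, 2 genes were higher and 11 lower without stimulation, against 1.27% and 54.4% of all tested genes. With TGF-β1, 2 were higher and 1 lower, against 0.871% and 47.5%. The large background of lower genes follows from the scale, which moves the median of all tested genes from −0.01 to −0.58 without stimulation and from −0.02 to −0.52 with TGF-β1. Panel genes themselves lay on both sides of its median. Without stimulation Itgam averaged 648 CPM in Smad7-KO against 253 CPM in control, and Coro1a 143 against 168 CPM. By summed CPM the panel stood higher, at 0.78 log2 in unstimulated and 0.71 log2 in stimulated Smad7-KO cells, relative to unstimulated control. Fcgr2b exceeded the panel's median in both comparisons, by 0.41 log2 (adjusted p = 0.0117) and 0.53 log2 (adjusted p = 0.00499), and the first of these was lost without unstimulated Smad7-KO library 1 (adjusted p = 0.0531). Folr2 fell short of it in both, by −1.02 log2 (adjusted p = 0.000854) and −0.80 log2 (adjusted p = 0.00491). The files count Folr2 over a gene model that shares 42.2% of its windows of 100 bases with Gm10602. Gpnmb exceeded the panel without stimulation (0.34 log2, adjusted p = 0.031), a call lost without library 1 of unstimulated control or library 1 or 3 of unstimulated Smad7-KO (adjusted p of up to 0.115) and with the length trend removed (0.18 log2, adjusted p = 0.0613). Mrc1 exceeded it with TGF-β1 (0.49 log2, adjusted p = 0.0315), a call lost without control library 2 or 3 or Smad7-KO library 1 or 2 of that condition (adjusted p of up to 0.124). The other genes lower than the panel without stimulation were Spi1 (−0.79 log2), Aif1 (−1.20), C1qa (−0.85), C1qb (−0.56), C1qc (−0.63), Tyrobp (−0.61), Marco (−1.29), Clec4n (−0.61), Trem2 (−0.51) and Cx3cr1 (−0.96). Of these, Spi1, Aif1, C1qa, Marco, Clec4n and Cx3cr1, and Folr2, were called whichever library was left out. Tyrobp was lost in 11 of the 12 such fits (adjusted p of up to 0.235), C1qc and Trem2 in 5 each (up to 0.128 and 0.114) and C1qb in 4 (up to 0.0909), and for these 4 the highest p came without unstimulated control library 2. The count of 13 genes called ranged from 7, without unstimulated Smad7-KO library 1, to 22, without unstimulated control library 3.

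Gene length moved together with these differences. The 31 genes had a median length of 2034 bases, from 564 for Tyrobp to 5361 for Ccr2, and the panel one of 2882.5 bases. Among the 16 shorter of the 31, 2 exceeded control at the threshold in each comparison, with medians of −0.01 and 0.27 log2. Among the 15 longer, 12 were higher without stimulation and 8 with TGF-β1, with medians of 0.64 and 0.60 log2. The shares called among all genes of like length are not given here, so this split is not a result particular to macrophage genes. When a trend on gene length was fitted in each library over all tested genes and removed, 23 genes were called higher and 1 called lower for Smad7 loss without stimulation, against 13.3% and 16.1% of all genes, and 22 higher and 0 lower with TGF-β1, against 10.4% and 12.4%. The medians became 0.50 and 0.54 log2. On that scale shorter and longer genes were alike in number, with 11 and 12 higher without stimulation and 11 in each class with TGF-β1.

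**Figure D3:**
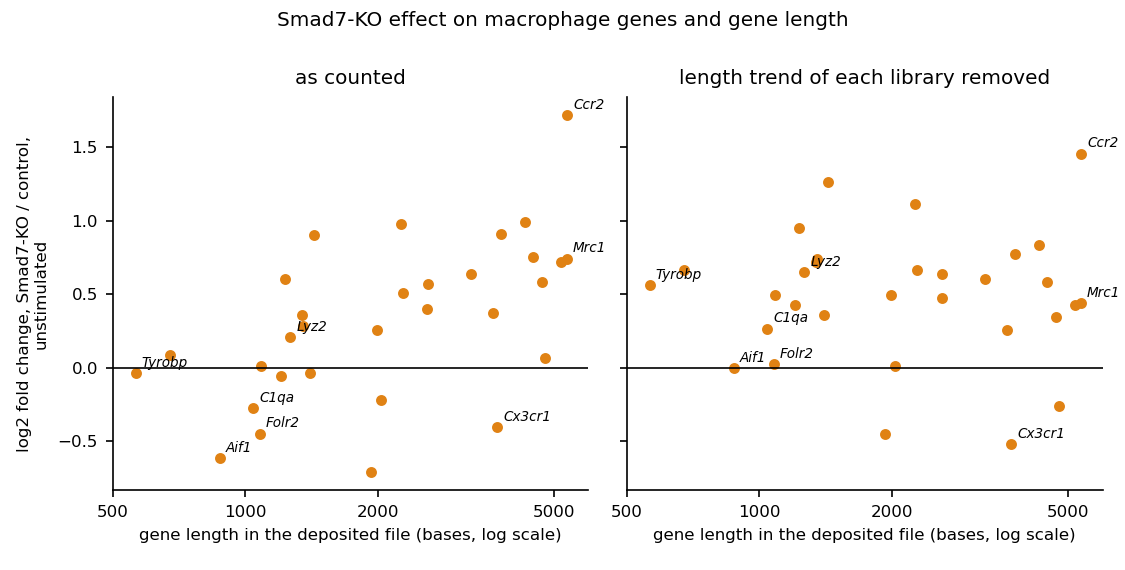
Log2 difference between unstimulated Smad7-KO and control (vertical axis) against gene length in bases (horizontal log axis) for the 31 tested macrophage genes, as counted and after removal of the length trend. As counted, the median of the shorter genes is about 0 and that of the longer genes 0.64, with single genes widely spread in both classes. With the trend removed the medians of the shorter and the longer genes are 0.50 and 0.58.

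The genes that appeared with the trend removed were mainly the short, abundant ones. Lyz2 became 0.65 and 0.62 log2 higher without stimulation and with TGF-β1, Ctss 0.74 log2, C1qb 0.50 log2, C1qc 0.42 log2, Fcer1g 0.66 log2 and Tyrobp 0.56 log2 higher without stimulation, each now called. C1qa passed at 0.27 log2 (adjusted p = 0.044). The genes not called without stimulation on that scale were Spi1, Aif1, Vsig4, Cd163, Marco, Folr2 and Trem2, and the lower gene was Cx3cr1 (−0.52 log2, adjusted p = 0.0026). Relative to the panel with the trend removed, 1 gene was higher and 10 lower without stimulation, against 1.33% and 66.8% of all genes, and 3 were higher and 8 lower with TGF-β1, against 0.911% and 67% of all genes. Fcgr2b was higher there in both comparisons (0.52 and 0.53 log2) and Folr2 lower (−0.57 and −0.65 log2), as were Spi1, Aif1, Marco and Cx3cr1. Csf1r and Msr1, which were higher on the TMM scale, were also lower than the panel there in both comparisons, Csf1r by −0.25 log2 (adjusted p = 0.00787) and −0.17 log2 (adjusted p = 0.04995) and Msr1 by −0.34 log2 (adjusted p = 0.00636) and −0.30 log2 (adjusted p = 0.0153). Ptprc was lower than it with TGF-β1 (−0.21 log2, adjusted p = 0.0329). C1qa was also lower than the panel without stimulation there (−0.33 log2, adjusted p = 0.00938), whereas C1qb, C1qc and Tyrobp were not called, at −0.10, −0.17 and −0.03 log2. With unstimulated control library 2 also left out, 23 and 25 genes were called in the 2 comparisons. Beside the length trend, 6 of the 9 endothelial genes tested fell with Smad7 loss in each comparison. Of all genes, 13.7% and 7.23% were called lower as counted. Vwf in both comparisons, and Kdr without stimulation, averaged more in Smad7-KO cells. The part of the length trend or of the endothelial genes in the differences of macrophage genes was not tested.

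TGF-β1 changed a small set of macrophage genes and moved them in opposite directions. In control cells 1 of the 31 was higher and 4 lower, against 5.04% and 3.33% of all genes, and in Smad7-KO cells 1 gene was called higher and 3 called lower, against 5.33% and 4.90%. The medians over the 31 were −0.23 and 0.03 log2. The libraries separated without overlap in 5 genes in control cells, against 19.8% of all genes, and in 16 genes in Smad7-KO cells, against 39% of all genes. The higher gene was Cx3cr1 in both, and Clec7a, Cd163 and Fcgr3 were lower in both, while Clec4n was lower in control cells. These calls held whichever library was left out, although a fit of only the 6 libraries compared kept Cx3cr1 and Clec7a alone in control cells, and without unstimulated control library 3 there were 12 calls in control cells. The comparisons share libraries with those of the genotypes, and each is given by its own values.

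**Figure D4:**
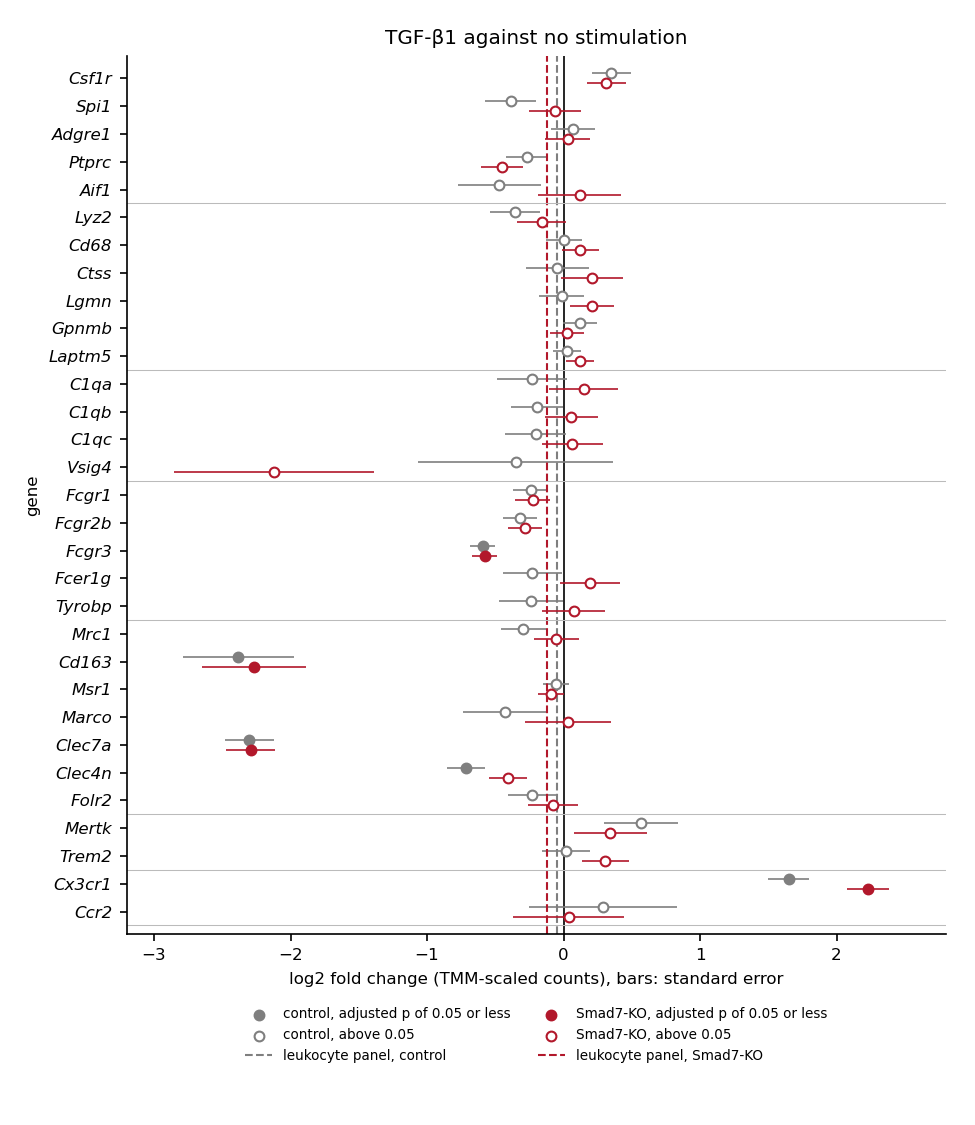
Log2 difference between TGF-β1 and unstimulated libraries for the 31 tested macrophage genes (points, with bars for 1 standard error) in control and in Smad7-KO cells, filled where the adjusted p passed 0.05. The dashed lines mark the panel's shift at −0.05 and −0.12, and Cx3cr1 on the right and Clec7a, Cd163 and Fcgr3 on the left stand apart from the other genes.

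Cx3cr1 encodes the receptor for the chemokine fractalkine. It was at 85.4, 65.9 and 102 CPM in unstimulated control and 272, 257 and 264 CPM with TGF-β1, a 3.14-fold increase (1.65 ± 0.15 log2, adjusted p = 4.38e-05). In Smad7-KO cells it went from 72.5, 54.7 and 64.0 CPM to 316, 299 and 282 CPM, a 4.69-fold increase (2.23 ± 0.16 log2, adjusted p = 4.66e-06). All stimulated libraries exceeded all unstimulated ones. The increase was 0.58 log2 larger in Smad7-KO cells, with a 95% interval of 0.17 to 0.99, but this difference of differences did not pass over all genes (adjusted p = 0.98). Between genotypes Cx3cr1 differed by −0.40 ± 0.15 log2 without stimulation (adjusted p = 0.0646) and by 0.18 ± 0.15 log2 with TGF-β1. The gene model of Cx3cr1 in the files overlaps those of Wdr48, Gorasp1, Csrnp1, Xirp1 and Ttc21a, whose highest counts in a library were 1566, 908, 848, 36 and 19, beside at least 1153 for Cx3cr1, and whether counting used strand is not given in the sources used here.

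Clec7a moved the other way. It fell from 73.8, 89.4 and 54.9 CPM to 11.8, 15.0 and 17.4 CPM in control cells and was 4.93-fold lower with TGF-β1 (−2.30 ± 0.18 log2, adjusted p = 1.37e-05). In Smad7-KO cells it fell from 104, 101 and 105 CPM to 21.7, 21.7 and 19.7 CPM and was 4.90-fold lower (−2.29 ± 0.18 log2, adjusted p = 1.02e-05). Both falls were many times the spread between replicates, and their difference was 0.01 log2 with a 95% interval of −0.46 to 0.48. Cd163, with 19 to 247 counts per library, was at 4.93, 3.14 and 10.0 CPM in unstimulated control and 1.50, 0.773 and 1.22 CPM with TGF-β1, 5.21-fold lower (−2.38 ± 0.41 log2, adjusted p = 0.00303). In Smad7-KO cells Cd163 went from 12.2, 10.3 and 8.24 CPM to 2.39, 2.31 and 1.65 CPM, 4.81-fold lower (−2.27 ± 0.38 log2, adjusted p = 0.00236). No stimulated library reached an unstimulated one of its genotype.

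Fcgr3 fell less. From the unstimulated values given above it was 1.51-fold lower with TGF-β1 in control cells (−0.59 ± 0.09 log2, adjusted p = 0.00169) and 1.49-fold lower in Smad7-KO cells (−0.58 ± 0.09 log2, adjusted p = 0.00162), with a difference between the genotypes of 0.01 log2 and a 95% interval of −0.25 to 0.27. Clec4n was at 246, 297 and 194 CPM in unstimulated control and 139, 153 and 157 CPM with TGF-β1 (−0.71 ± 0.14 log2, adjusted p = 0.00666). In Smad7-KO cells it was at 221, 257 and 239.8 CPM and 179.5, 185 and 177 CPM (−0.41 ± 0.14 log2, adjusted p = 0.0945), and the difference between genotypes of 0.31 log2 had a 95% interval of −0.07 to 0.69.

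The calls with TGF-β1 changed little on the panel scale. Relative to the panel 1 gene was higher and 4 lower in control cells, against 5.30% and 2.61% of all genes, and in Smad7-KO cells 1 was called higher and 3 called lower, against 6.59% and 2.97%. With the length trend removed in place of the panel scale, 2 were higher and 6 lower in control cells, against 7.81% and 7.27% of all genes, and in Smad7-KO cells 2 were called higher and 5 called lower, against 8.51% and 8.61%. Cx3cr1 was higher than the panel by 1.70 and 2.34 log2, Clec7a differed by −2.26 and −2.17 log2, Cd163 by −2.34 and −2.15 log2 and Fcgr3 by −0.54 and −0.46 log2. No tested member had a genotype by TGF-β1 interaction at the threshold, by edgeR on either scale, and 1 of the 31 had an unadjusted p under 0.05 on the TMM scale. That gene was Cx3cr1, named after its values were seen. Over all genes 0.0198% were called higher on the TMM scale and 0.0132% on the panel scale, and 0% lower.

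**Figure D5:**
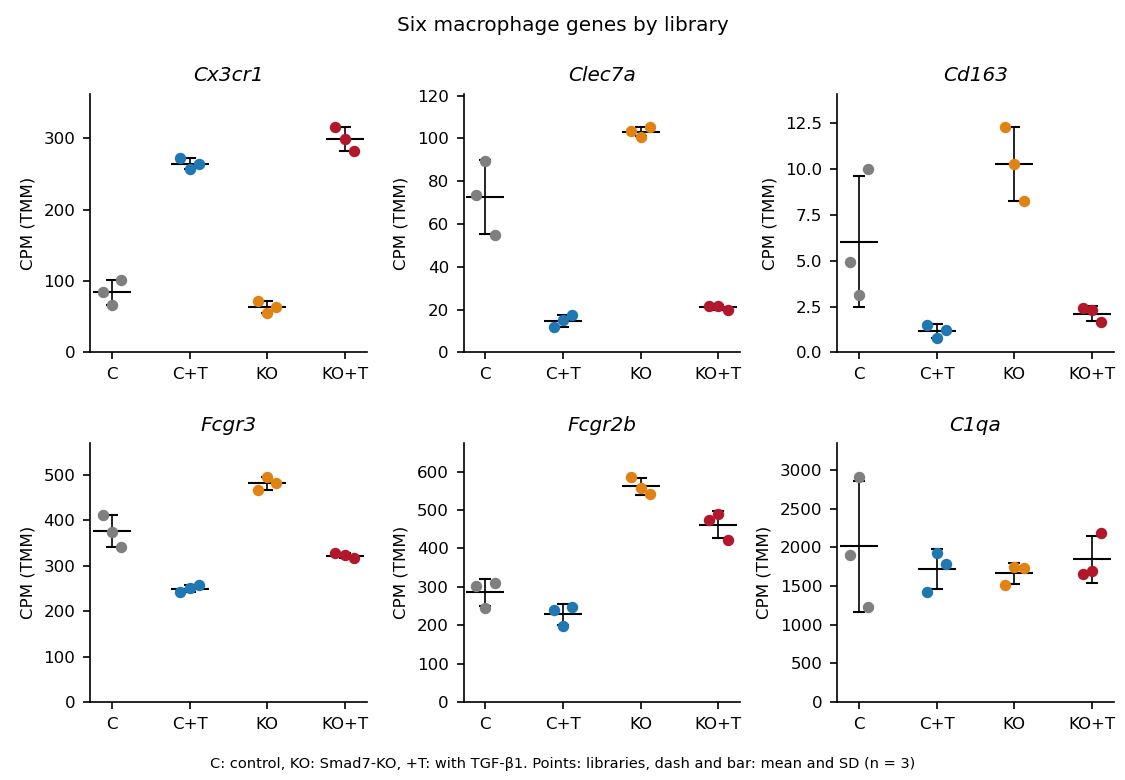
CPM of Cx3cr1, Clec7a, Cd163, Fcgr3, Fcgr2b and C1qa in each library (points) by condition, with the mean and SD of the 3 libraries of each condition. Cx3cr1 rises and Clec7a, Cd163 and Fcgr3 fall with TGF-β1 in both genotypes, Fcgr2b is higher in Smad7-KO libraries with and without TGF-β1, and C1qa overlaps between genotypes.

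Promoter sequences are shown for the 3 genes that TGF-β1 changed most. They are the 250 bases before the annotated start in RefSeq (mouse build GRCm38.p6), written 5′ to 3′ on the strand of the gene, at chr9:120068297-120068546 (minus strand) for Cx3cr1, chr6:129472786-129473035 (minus strand) for Clec7a and chr6:124304401-124304650 (plus strand) for Cd163. Capitals mark GAGGAAG, the core of sites bound by PU.1, and CAGAC, a core bound by SMAD proteins, on either strand.
Cx3cr1: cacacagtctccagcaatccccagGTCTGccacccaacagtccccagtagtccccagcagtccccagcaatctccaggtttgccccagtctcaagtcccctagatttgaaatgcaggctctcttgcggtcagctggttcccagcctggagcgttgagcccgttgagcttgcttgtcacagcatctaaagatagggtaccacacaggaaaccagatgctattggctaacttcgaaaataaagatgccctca
Clec7a: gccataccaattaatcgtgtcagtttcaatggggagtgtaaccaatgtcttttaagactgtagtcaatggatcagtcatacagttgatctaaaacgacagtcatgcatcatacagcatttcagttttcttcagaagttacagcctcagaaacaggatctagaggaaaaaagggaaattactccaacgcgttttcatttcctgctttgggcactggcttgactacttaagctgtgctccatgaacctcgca
Cd163: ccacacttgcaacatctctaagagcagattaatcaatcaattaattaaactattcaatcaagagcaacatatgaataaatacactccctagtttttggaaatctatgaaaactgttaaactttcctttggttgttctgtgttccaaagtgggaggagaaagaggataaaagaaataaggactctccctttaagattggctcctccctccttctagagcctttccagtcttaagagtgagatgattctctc
Of the 3 windows shown, only that of Cx3cr1 held a match, 1 CAGAC on the opposite strand. The window of Fcgr3, also called lower with TGF-β1 in both genotypes, is not shown and held 1 GAGGAAG and 1 CAGAC. RefSeq had such windows for 25 of the 33 genes, of which 7 held GAGGAAG, or 28%, beside 6 of 24 panel genes with a window, or 25%, and 10.4% of all 27025 windows. CAGAC was in 12 of the 25, or 48%, in 45.8% of the panel windows and in 42.2% of all windows. Neither motif contains the other, and CAGAC and the 3 genes printed were chosen after the values were seen.

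Other genes of macrophage function were examined as lists. Of 12 genes for signals that feed, attract or engage macrophages, 11 were tested. For Smad7 loss 2 of them were called higher and 4 called lower without stimulation, against 12.1% and 13.7% of all tested genes, and 2 each way with TGF-β1, against 5.72% and 7.23%. The list's medians were −0.40 and −0.17 log2, beside −0.01 and −0.02 over all genes. Csf1, the ligand of CSF1R, was at 1317, 1036 and 1444 CPM in unstimulated control and 949.5, 933 and 989.9 CPM in Smad7-KO (−0.40 log2, adjusted p = 0.043). On this scale Csf1r was higher, whereas relative to the leukocyte panel it differed by 0.02 log2 (edgeR, adjusted p = 0.911). A link between ligand and receptor was not tested. With TGF-β1, Csf1 was at 1712, 1524 and 1581 CPM against 1053, 1201 and 1240 CPM (−0.46 log2, adjusted p = 0.0367). Gas6, a bridging ligand of MERTK, was higher in Smad7-KO cells, at 943 to 1070 CPM against 1358 to 1392 CPM without stimulation (0.43 log2, adjusted p = 0.0101) and 874 to 969.5 CPM against 1278 to 1358 CPM with TGF-β1 (0.52 log2, adjusted p = 0.00481). Mfge8, which bridges dead cells to phagocytes, was lower (−0.64 log2, adjusted p = 0.00195, and −0.63 log2, adjusted p = 0.0026). Cx3cl1, the ligand of CX3CR1, was at 20.4, 16.0 and 22.4 CPM in unstimulated control and 51.7, 49.6 and 48.1 CPM with TGF-β1, and at 10.4, 10.7 and 16.1 CPM and 39.8, 46.5 and 46.0 CPM in Smad7-KO. It rose with TGF-β1, as its receptor did, by 1.83 log2 in Smad7-KO cells (adjusted p = 4.6e-05), and in control cells its adjusted p was 0.000427.

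Of 17 genes of macrophage activation 14 were tested. For Smad7 loss 2 were called higher and 1 called lower, both without stimulation, against 12.1% and 13.7% of all tested genes, and with TGF-β1, against 5.72% and 7.23%. With TGF-β1, control cells had 1 higher and 7 lower genes, against 5.04% and 3.33% of all genes, and for Smad7-KO cells the counts were 2 and 8, against 5.33% and 4.90%. The medians of the list with TGF-β1 were −0.49 and −0.59 log2, beside −0.03 and −0.01 over all genes. The chemokine Ccl3 fell from 57.7, 75.0 and 42.7 CPM to 11.8, 16.8 and 18.8 CPM in control cells (−1.89 log2, adjusted p = 0.000198) and from 44.3, 43.6 and 44.3 CPM to 13.2, 16.9 and 12.3 CPM in Smad7-KO cells (−1.64 log2, adjusted p = 0.000467). Its neighbour Ccl4 fell by 1.99 log2 in control cells (adjusted p = 0.00186) and by 1.70 log2 in Smad7-KO cells (adjusted p = 0.00442). Lgals3, which encodes galectin-3, was at 632, 973 and 427 CPM in unstimulated control and 279, 362 and 339 CPM with TGF-β1 (−1.05 log2, adjusted p = 0.0165), and it fell by 0.83 log2 in Smad7-KO cells (adjusted p = 0.0464). Spp1, which encodes osteopontin, was higher in Smad7-KO cells, at 1181, 2192 and 978 CPM against 2169, 2737 and 3282 CPM without stimulation, where the groups overlapped (0.91 log2, adjusted p = 0.0292).

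Within the panel used as scale, single genes also departed from the common shift. The pore-forming Mpeg1 was at 1489, 1210 and 1793 CPM in unstimulated control and 3206, 3223 and 3239 CPM in Smad7-KO, 1.11 log2 higher. Itgam, which encodes the integrin CD11b, was 1.36 log2 higher without stimulation and 1.02 log2 higher with TGF-β1. Inpp5d, a phosphatase of blood cells, was at 140.5, 86.0 and 179 CPM in unstimulated control and 376, 297 and 360 CPM with TGF-β1 (1.35 log2, adjusted p = 0.00169). C5ar1, the receptor for complement C5a, was at 200.5, 195 and 184 CPM and 114, 117 and 117 CPM in the same libraries (−0.74 log2, adjusted p = 0.000175). In Smad7-KO cells C5ar1 was at 226, 247 and 251 CPM without stimulation and 149, 149.9 and 159.5 CPM with TGF-β1 (−0.66 log2, adjusted p = 0.000339).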

How the data were processed

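Per the labels, poly-A RNA of 12 libraries was prepared with the NEBNext Ultra kit. The authors deposited raw read counts per gene and FPKM values. The submitters' processing notes name CASAVA, TopHat2 2.0, Cufflinks 2.1.1 and HTSeq 0.6.1, with builds mm10 and GRCm38.p6.

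Members and lists were chosen with earlier results of these data known. Genes were matched by symbol, Adgre1 by Ensembl ID. edgeR 4.0.16 (R 4.3.3) fitted 4 group means to 12 libraries by quasi-likelihood with TMM scaling after filterByExpr (minimum count 10). 15150 of 35275 genes were tested in 5 comparisons, with Benjamini-Hochberg adjustment over all. Intervals of 95% are normal intervals from the SE. The panel scale is a median of ratios over 32 genes. The length trend was a loess fit per library (span 0.3) on log gene length. Exact permutation over 3 against 3 libraries cannot go below 0.1 and was not used. Replicates differed by more than sampling noise. Methods were tested on simulated data.

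Named were all members, with values per library for the 3 highest of each role by FPKM and for called members without overlap, and at most 4 genes per other list. Alternatives were DESeq2 1.42.0, its size factors, only the libraries compared, no filter, limma 3.58.1 on log2(FPKM + 1) with FPKM of at least 1 in 3 libraries, a replicate block, the length trend removed, the members as scale and each library left out. Removal of the trend together with unstimulated control library 2 was added after the data were seen. A planned comparison of protein sequences was not made.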

Additional observations from a re-analysis of the deposited data

How the results depend on the processing

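No called macrophage gene changed direction under any alternative. DESeq2 lost 0 of the 58 calls on both scales, and a fit of only the libraries compared lost 27. The fit of only the libraries compared called 2, 20, 2 and 13 genes for Smad7 loss without and with TGF-β1 and for TGF-β1 in control and Smad7-KO cells, and 4, 11, 2 and 15 relative to the panel. With the length trend removed the counts were 24, 22, 8 and 7, with 11, 8 and 8 relative to the panel for all but the first, and medians of 0.50 log2 for Smad7 loss without stimulation and 0.01 log2 for TGF-β1 in control cells. With unstimulated control library 2 left out as well, an alternative chosen after seeing the data, they were 23, 25, 11 and 12, with 14, 11 and 12 relative to the panel for all but the first and 1 interaction call, and medians of 0.55 log2 for Smad7 loss with TGF-β1 and −0.05 log2 for TGF-β1 in control cells. limma called 6 genes for Smad7 loss with TGF-β1, and DESeq2 called 5 relative to the panel. The summed CPM of the panel put its level at 0.78 and 0.71 log2 in Smad7-KO cells without and with TGF-β1. In each case the cause was not tested. The shares of all genes called are not given beside the counts here and below, so a change in count is not a result about the macrophage genes.

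Leaving out each library gave 6 to 18, 5 to 20, 5 to 12 and 4 to 7 calls in those comparisons and 7 to 22, 2 to 11, 4 to 10 and 3 to 8 relative to the panel, with 0 to 0 interaction calls. The medians ranged over 0.29 to 0.42, 0.38 to 0.52, −0.33 to −0.06 and −0.02 to 0.09 log2, and over 0.07 to 0.21 log2 for the interaction.

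Correlations between libraries gave no clear pairing by replicate number, and with 3 libraries per condition they cannot exclude one. Of 18 same-numbered pairs, 1 correlated above 0.1, with a range of −0.36 to 0.53, and 5 of 12 libraries correlated best with their own number. With the replicate number as a block, 12 and 8 genes were called for Smad7 loss, 5 and 4 for TGF-β1 and 0 for the interaction, and 12, 4, 5 and 4 relative to the panel.

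Ccr2, Vsig4, Lyve1 and Timd4 had few counts in every library, and each comparison rests on 3 libraries per condition.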
